A study of Homo sapiens with 77 samples.

Results

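A pooled CRISPR-Cas9 knockout screen held 52 sgRNAs against 13 genes of H3K9 methylation and heterochromatin, of 2306 sgRNAs and 564 genes in all. They were taken by gene name: every gene starting with SETDB, EHMT or SUV39H, together with CBX1, CBX3, CBX5, TRIM28, MPHOSPH8, UHRF1 and UHRF2, each with 4 sgRNAs. ATF7IP, a partner of SETDB1, was also sought and is not among the genes analysed here. The screen used a library aimed at chromatin genes in Cas9-expressing KARPAS422 cells, an EZH2 mutant line of diffuse large B cell lymphoma (DLBCL), and in K562 cells, an EZH2 wildtype line of chronic myeloid leukemia (CML), both untreated. For each line there was a day 14 library and a day 0 library, 1 of each, which leaves the screen without replicate error and without any p-value. The same 13 genes were followed by RNA-seq in KARPAS422 with 2 libraries per group, in cells given MI503 (MI-503, a MEN1 inhibitor) or DMSO. In a further experiment cells were given EPZ6438 (an EZH2 inhibitor), VTP50469 (a MEN1 inhibitor), both drugs together or a control. The titles of this control read CTR. It is called DMSO below, since the paper names DMSO as the control of EPZ6438 in its other KARPAS422 assays. DMSO libraries of DB, an EZH2 mutant DLBCL line, of Farage, an EZH2 wildtype DLBCL line, and of SUDHL5, a further DLBCL line, 2 of each, were used to compare levels. Libraries of SuDHL10, an EZH2 mutant DLBCL line, given EPZ6438, VTP50469, both drugs or a control, served for 1 purpose. They were read only to see where EHMT2 and genes near it are listed at 0. Whether the 2 libraries of a group were grown separately is not in the labels. The p-values therefore rest on a spread between libraries that may be technical. Per the study's methods the lines were not authenticated, and how many cells lost each targeted gene was not analysed here.

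Methylation of histone H3 at lysine 9 marks silent chromatin. It is written by SUV39H1 and SUV39H2 at repeats near centromeres, by the EHMT1-EHMT2 pair (GLP and G9a) across silent regions and genes, and by SETDB1, which TRIM28 brings to transposons. It is read by the HP1 proteins CBX1, CBX3 and CBX5 and by MPHOSPH8, a subunit of the HUSH complex. UHRF1 reads H3K9 methylation together with hemimethylated DNA behind the replication fork, where it brings in the maintenance methyltransferase DNMT1, and UHRF2 is its close relative.

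In KARPAS422 the day 14 library held 19025742 sgRNA counts and the day 0 library 20640972. In K562 they held 18275683 and 25031212 counts. Changes are log2 of day 14 over day 0, centred on the control sgRNAs, and a gene's score is the median over its sgRNAs with at least 30 counts on day 0. A score below −1 thus means sgRNAs that became over 2-fold rarer than the controls. The 48 control sgRNAs that passed the minimum spread from −2.58 to 2.08 in KARPAS422 (SD 0.638) and from −7.15 to 2.40 in K562 (SD 1.30). In the RNA-seq libraries of KARPAS422 the B cell markers PAX5, CD79A, CD79B and MS4A1 were all present, the lowest value being 363 CPM for CD79B. Of the T cell markers, CD3E lay between 1.48 and 3.34 CPM and CD3D between 42.7 and 62.5 CPM over the 12 libraries.

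In KARPAS422, sgRNAs against UHRF1, EHMT2, TRIM28, EHMT1 and SETDB1 had become rarer by day 14, with gene scores of −3.71, −2.48, −1.46, −1.43 and −1.30. These were 5 of the 13 members with a score below −1, where 32.6% of all 564 genes were below −1. All kept sgRNAs of UHRF1, EHMT2, TRIM28 and SETDB1 were below −1, so 4 of 13 members met this stricter rule, as did 17.4% of all genes. The other 8 members scored between −0.94 and −0.16. The median of the members was −0.92, and that of all genes was −0.69. Of the 50 member sgRNAs that passed the minimum in KARPAS422, 25 fell below −1, against 36.9% of all sgRNAs directed at genes. The gene set as a whole therefore sat close to the rest of the library, and the low scores belonged to a few members. With centring on all sgRNAs or on library totals alone in place of the controls, 2 of the 13 members, UHRF1 and EHMT2, scored below −1, where 19.5% and 18.6% of all genes did.

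In K562, SETDB1 was the member with the lowest score, at −1.11, and the only member of 13 below −1, where 4.08% of all genes were below −1. No member had all its sgRNAs below −1 in K562, where 0.532% of all genes did. SUV39H2 at −0.91, UHRF1 at −0.90 and EHMT2 at −0.86 followed. The member median was −0.44 and that of all genes −0.23. Of 51 member sgRNAs, 12 fell below −1, against 11.9% of all sgRNAs directed at genes. With the centring on all sgRNAs, or with library totals alone, 0 members scored below −1 in K562.

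UHRF1 had the lowest score of the members in KARPAS422, rank 26 from the lowest of 564 genes, and its 4 sgRNAs moved alike. The sgRNA s_2163 stood at 58.3 CPM (counts scaled to the library total) on day 14, against 1125 on day 0, a log2 change of −5.04. For s_2165 the values were 119 on day 14 and 1059 on day 0 (−3.93), for s_2166 they were 127 and 839 (−3.50), and for s_2164 they were 34.4 and 185 (−3.20). All 4 lay below the lowest of the 48 controls, a place held by 13.2% of all sgRNAs directed at genes. In K562 the same 4 sgRNAs changed by −0.86, −0.94, −0.43 and −1.48, in the order given. The sgRNA lost most in KARPAS422, s_2163, was thus not the one lost most in K562, which was s_2164. UHRF2 behaved otherwise, with a score of −0.16 in KARPAS422, the highest of the members, and −0.24 in K562. Its sgRNAs lay between −0.72 and 0.079 in KARPAS422. In K562, s_2168 alone stood apart, at 6.78 CPM on day 14, against 42.8 on day 0 (−2.83), while s_2169, s_2170 and s_2167 changed by −0.31, −0.16 and 0.53.

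EHMT2 and EHMT1, which act as a pair, had the lowest KARPAS422 scores of the 6 H3K9 methyltransferase genes among the members. EHMT1 was rank 129 from the lowest of 564 genes, and its place depended on how sgRNAs were combined. With the mean over sgRNAs, SUV39H2 (−2.35) and SETDB1 (−1.49) were below EHMT1 (−1.33). Without each gene's highest sgRNA, SUV39H2 (−3.48) was below EHMT2 (−2.57) too. For EHMT2, s_511 was at 73.2 CPM on day 14, against 338 on day 0 (−2.97), s_512 at 72.8 against 253 (−2.57), s_510 at 112 against 342 (−2.38), and s_509 at 363 against 736 (−1.79). All 4 were below −1, and s_511 also lay below every control. In K562, s_512 and s_510 changed by −1.48 and −1.23, whereas s_511 and s_509 changed by −0.49 and −0.028. The EHMT2 sgRNAs therefore split in K562, and the score of −0.86 is the middle of an uneven set. For EHMT1 in KARPAS422, s_508 changed by −1.67, s_506 by −1.58, s_507 by −1.28 and s_505 by −0.81, so that 3 of 4 were below −1. In K562 the 4 EHMT1 sgRNAs lay between −0.68 and −0.061, with a score of −0.27. EHMT2 lies on chromosome 6 of hg38 from 31879759 to 31897698 and EHMT1 on chromosome 9 from 137618992 to 137870016.

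TRIM28, the corepressor that carries SETDB1 to its targets, scored −1.46 in KARPAS422 and −0.62 in K562. Its sgRNAs in KARPAS422 changed by −2.06 (s_2088), −1.51 (s_2089), −1.41 (s_2087) and −1.09 (s_2090), all below −1. In K562 only s_2089 was below −1, at −1.45, and s_2090 was at 0.11. The SETDB1 score rests on 3 sgRNAs in each line, since s_1786 had 13 counts on day 0 in KARPAS422 and 0 in K562. The 3 others changed by −2.03 (s_1785), −1.30 (s_1783) and −1.14 (s_1784) in KARPAS422, and by −1.62, −0.051 and −1.11 in K562. The KARPAS422 values agree in direction, whereas in K562 s_1783 did not move with the other sgRNAs, and the score is the single middle value of s_1784. SETDB2, a related gene, scored −0.39 in KARPAS422 and −0.25 in K562. None of its 4 sgRNAs was below −1 in KARPAS422, where they ran from −0.60 to −0.21, and they ran from −1.19 to 0.74 in K562.

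The methyltransferases of pericentromeric repeats, SUV39H1 and SUV39H2, both scored above −1, but the score of SUV39H2 depended on how its sgRNAs were combined. SUV39H1 scored −0.92 in KARPAS422, with 4 sgRNAs from −1.24 to −0.68, and −0.048 in K562, with sgRNAs from −0.51 to 0.31. SUV39H2 scored −0.50 in KARPAS422 and −0.91 in K562, and its sgRNAs differed widely in abundance. In KARPAS422, s_1963 changed by −0.50 and s_1966 by −0.088. The sgRNA s_1965, with 53 counts on day 0, had 0 on day 14. Taken at a floor of 3 counts on day 14, it was 27.7-fold rarer relative to the controls. The exact 95% upper counting bound of its log2 change was −4.45. The sgRNA s_1964 had 11 counts on day 0 and was left out there. In K562, s_1964 had 0 counts on day 14 and 71 on day 0. It was 19.7-fold rarer at the same floor, with an upper bound of −3.96. In that line s_1965 changed by −1.23, s_1966 by −0.60 and s_1963 by −0.32. With a minimum of 300 counts on day 0, which left s_1963 and s_1966, SUV39H2 was at −0.30 in KARPAS422 and −0.46 in K562. With the lost sgRNAs given more weight SUV39H2 crossed −1. In KARPAS422 it was at −2.35 as the mean over sgRNAs, −2.41 with no minimum on day 0 and −3.48 without its highest sgRNA, and in K562 at −2.07 as the mean and −1.23 without its highest sgRNA. These values include sgRNAs with 0 counts and so depend on the pseudocount, except the last. Loss of such scarce sgRNAs was common over the whole library. Of all sgRNAs with at least 30 but under 300 counts on day 0, 10 of 66 in KARPAS422 and 26 of 55 in K562 had 2 counts or fewer on day 14.

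The 3 HP1 readers all scored above −1 in both lines. CBX1 (HP1 beta) scored −0.84 in KARPAS422 and −0.44 in K562, with sgRNAs from −1.30 to −0.28 and from −1.27 to 0.17. CBX3 (HP1 gamma) scored −0.61 in KARPAS422 and 0.062 in K562. In KARPAS422 its s_282 changed by −2.39, apart from the 3 others at −0.70, −0.52 and −0.11, and in K562 the same sgRNA changed by 0.049. CBX5 (HP1 alpha) scored −0.39 in KARPAS422 and −0.58 in K562, with sgRNAs from −0.78 to 0.0014 and from −0.69 to 0.44.

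MPHOSPH8 scored −0.94 in KARPAS422 and −0.36 in K562, but each line lost a different sgRNA almost entirely, and the mean over sgRNAs was −2.77 and −2.21, the first with an sgRNA at 0 counts. In KARPAS422, s_1099 had 0 counts on day 14 and 468 on day 0. At the floor of 3 counts it was 245-fold rarer relative to the controls, with an exact 95% upper bound of −7.63 on the log2 scale. In that line s_1100 changed by −1.37, s_1098 by −0.51 and s_1097 by 0.36. In K562, s_1097 had 2 counts on day 14 and 1129 on day 0, a log2 change of −8.37 with a counting interval from −11.9 to −7.02 (exact, 95%), while s_1100 changed by −0.94, s_1099 by 0.23 and s_1098 by 0.26. The sgRNA lost in KARPAS422 was thus kept in K562, and the sgRNA lost in K562 was kept in KARPAS422. Such losses were rare at this abundance: s_1099 was the 1 sgRNA of 110 with at least 300 but under 1000 counts on day 0 that had 2 counts or fewer on day 14 in KARPAS422, and s_1097 was the 1 of 2124 with 1000 or more counts in K562. It was also the only member sgRNA below the lowest control in K562, a place held by 0.539% of all sgRNAs directed at genes. Intervals and bounds cover counting error only, and floors only that of day 14.

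Set side by side, 10 of 13 members scored lower in KARPAS422 than in K562, as did 494 of all 564 genes. The difference, KARPAS422 minus K562, was −2.81 for UHRF1, −1.62 for EHMT2 and −1.15 for EHMT1. These 3 of 13 were the members with a difference below −1, where 27.3% of all genes had such a difference. SUV39H1 (−0.87), TRIM28 (−0.84) and CBX3 (−0.67) came next, and SUV39H2 (0.42), CBX5 (0.19) and UHRF2 (0.078) scored higher in KARPAS422. The SUV39H2 scores rest on 3 sgRNAs in KARPAS422 and 4 in K562. With the mean over sgRNAs SUV39H2 was lower in KARPAS422 (−2.35, against −2.07 in K562). So it was with no minimum on day 0 (−2.41, against −0.87) and without its highest sgRNA (−3.48, against −1.23). In the other screen alternatives SUV39H2 stayed higher in KARPAS422. The median difference was −0.58 for the members and −0.58 for all genes. By sgRNA, 41 of the 50 kept in both lines were lower in KARPAS422, against 1751 of 2223 over all genes. With library totals alone the median member difference was 0.0019, so the general offset between the lines depended on the control sgRNAs. With centring on all sgRNAs, EHMT1 scored −0.74 in KARPAS422 and −0.057 in K562, and its difference was no longer below −1. Nor was it with library totals alone (−0.66 in KARPAS422 and −0.088 in K562). The same sgRNA was the lowest of its gene in both lines for 2 of the 11 members with 4 sgRNAs in each, or 18.2%, against 32.0% of all such genes.

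DNMT1, the DNA methyltransferase that UHRF1 brings to replicated DNA, scored −3.46 in KARPAS422 and −0.74 in K562, the lowest of 11 DNA methyltransferases and partners in both lines. Its sgRNAs ran from −5.25 to −0.19 in KARPAS422, a wider range than those of UHRF1. In that list 2 of 11 genes scored below −1 in KARPAS422 and 0 of 11 in K562, where 32.6% and 4.08% of all genes did. HELLS had the highest score of the list in KARPAS422 (−0.025) and MBD1 in K562 (0.33). Of 12 H3K9 demethylases, which remove the mark, 5 scored below −1 in KARPAS422, against 32.6% of all genes. The list ran from KDM4D at −1.44 to KDM1A at −0.14. In K562, 1 of 12 scored below −1, PHF2 at −1.07, against 4.08% of all genes, and KDM4C was the highest at 0.35. Of 21 other silencing and heterochromatin genes, 8 scored below −1 in KARPAS422 and 0 in K562, against 32.6% and 4.08% of all genes. CHAF1A, the large subunit of the chromatin assembly factor that loads histones behind the fork, was the lowest of these in KARPAS422 at −4.28, its partner CHAF1B was at −3.58, and CDY2A the highest at −0.059. In K562 CDY2A was the lowest at −0.82 and ATRX the highest at 0.42. The core of PRC2, which writes the other main silencing mark H3K27me3, had a median of −3.54 in KARPAS422 (3 of 3 below −1, from EED at −4.22 to SUZ12 at −2.19) and −0.24 in K562 (0 of 3, from EED at −0.49 to SUZ12 at −0.095). In K562 the sgRNAs of EED ran from −8.35 to −0.43, the 3 of SUZ12 from −6.71 to 1.05 and those of EZH2 from −0.44 to −0.11. The SUZ12 sgRNAs in KARPAS422 ran from −2.59 to 0.097. UHRF1 and EHMT2 lay within the range of the PRC2 scores in KARPAS422, and the other members scored above it.

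RNA-seq showed how the genes themselves were transcribed in KARPAS422. UHRF1 mRNA fell with MI-503, to 92.9 and 88.1 CPM, against 154 and 152 CPM with DMSO (log2 fold change −0.75, SE 0.036, adjusted p = 9.43e-08, edgeR's quasi-likelihood test). The libraries of the groups did not overlap, and UHRF1 was the only member of 13 to fall past 1.5-fold, where 2.75% of all genes did. At an adjusted p under 0.1, 8 of 13 members fell and 2 rose with MI-503, where 26.3% and 25.5% of all 14495 genes tested fell and rose. The median member change was −0.14 on the log2 scale, against 0.0068 over all genes. SUV39H2 was at 24.3 and 25.3 CPM with MI-503, against 33.4 and 31.2 CPM with DMSO (−0.39, SE 0.059, adjusted p = 3.31e-04, edgeR). SETDB2 was at 109 and 109 CPM, against 92.8 and 92.1 CPM (0.24, SE 0.034, adjusted p = 1.75e-04, edgeR). CBX3 fell by 0.21, CBX5 by 0.14 and TRIM28 by 0.13 on the log2 scale. EHMT2 (−0.040), SETDB1 (0.014) and MPHOSPH8 (0.072) did not pass. These changes other than that of UHRF1 were small, and without MI503 replicate 1, the deeper of that pair, 5 members fell and 1 rose. In that fit CBX1, EHMT1, SUV39H1 and UHRF2 no longer passed.

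The experiment with EPZ6438 and VTP50469 has its own libraries, and its 3 comparisons share the DMSO libraries. With EPZ6438, 2 of 12 members tested fell and 0 rose, where 10% and 8.27% of all 13223 genes fell and rose. TRIM28 was at 395 and 369 CPM with EPZ6438, against 485 and 594 CPM with DMSO (−0.53, SE 0.12, adjusted p = 0.0396, edgeR). UHRF1 was at 100.3 and 99.9 CPM, against 124 and 155 CPM (−0.51, SE 0.13, adjusted p = 0.0504, edgeR). Neither pair overlapped, but both calls were lost without DMSO replicate 2 (TRIM28 −0.46, UHRF1 −0.44) or without EPZ6438 replicate 2 (TRIM28 −0.46, UHRF1 −0.49), and that of UHRF1 also without EPZ6438 replicate 1 (−0.63). No member rose at an unadjusted p under 0.05, and DESeq2 called 1 rise, CBX5 (0.54). Per the paper, VTP50469 was given here for a shorter time and at another dose than MI-503. With VTP50469, edgeR and DESeq2 called 0 of 12 members in either direction, and 0 had an unadjusted p under 0.05. Over all genes 3.18% rose and 0.197% fell. UHRF1 was then at 125 and 119 CPM, against 124 and 155 CPM with DMSO, and the groups overlapped.

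With both drugs, 6 of 12 members fell and 1 rose, where 25.2% and 23.5% of all genes fell and rose. UHRF1 changed most, to 51.2 and 53.7 CPM with both drugs, against 124 and 155 CPM with DMSO (−1.39, SE 0.13, adjusted p = 6.05e-04, edgeR). TRIM28 was at 269 and 274 CPM, against 485 and 594 CPM (−0.97, SE 0.12, adjusted p = 0.00147, edgeR). SUV39H1 was at 31.5 and 29.8 CPM, against 48.1 and 53.1 CPM (−0.70, SE 0.10, adjusted p = 0.00265, edgeR). For these 3 genes the libraries of the groups did not overlap, and those given both drugs lay closer together than the DMSO libraries. CBX3 was at 321 and 187 CPM with both drugs, against 632 and 433 CPM with DMSO (−1.04, adjusted p = 0.0264, edgeR), and SUV39H2 was at 9.61 and 8.02 CPM, against 16.9 and 13.1 CPM (−0.74, adjusted p = 0.0248, edgeR). CBX1 was at 67.6 and 54.8 CPM, against 88.8 and 84.1 CPM (−0.47, adjusted p = 0.0309, edgeR). The median member change was −0.36 on the log2 scale, against 0.10 over all genes, and 5 members fell and 1 rose past 1.5-fold, where 15.1% and 19.8% of all genes did.

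SETDB2 was the member that rose with both drugs, to 219 and 143 CPM, against 124 and 101 CPM with DMSO (0.72, SE 0.22, adjusted p = 0.0388, edgeR). The libraries of the combined treatment differed more from each other than those of any other group, and SETDB2 is one of the genes in which they did. Without replicate 1 of both drugs SETDB2 no longer passed (0.17), 10 members fell and 0 rose. In that fit CBX5 turned to −0.56, from 0.14 in the full fit, where it did not pass. Without replicate 2 of both drugs 2 members rose, CBX5 being the added gene (0.49), and without DMSO replicate 2 SETDB2 also did not pass (0.50). SUV39H2 did not pass without DMSO replicate 1 (−0.58). The falls of UHRF1, TRIM28, SUV39H1, CBX1 and CBX3 passed with each library left out in turn. In a fit of these 2 groups alone UHRF1, TRIM28 and SUV39H1 passed, and the calls of CBX1 (−0.45), CBX3 (−1.03), SUV39H2 (−0.72) and SETDB2 (0.73) were lost.

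EHMT2, the member with the second lowest score in the screen, was at 88.1 and 91.3 CPM with MI-503, against 90.3 and 94.0 CPM with DMSO. In the table of the other drugs it is listed at 0 in all 8 KARPAS422 libraries, and in 15 of 16 libraries with those of SuDHL10 counted too. No level or change is therefore given from that table. Genes around EHMT2 were listed at 0 too. The window of 500000 bases on either side held 30 genes with at least 10 CPM in KARPAS422 in the MI-503 experiment, EHMT2 included. Of these, 17 were listed at 0 in all 16 libraries, against 5.02% of 8305 other genes. EHMT2 is not among the 17, since it had 1 count in 1 SuDHL10 library.

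The genes with neighbouring roles were read in the same fits. Of the DNA methyltransferases and partners, 5 of 10 fell and 2 rose with MI-503, and 4 of 10 fell and 2 rose with both drugs. Over all genes 26.3% fell and 25.5% rose with MI-503, and 25.2% fell and 23.5% rose with both drugs. DNMT1 fell with MI-503 (−0.33, adjusted p = 7.00e-06, edgeR), with EPZ6438 (−0.36, adjusted p = 0.0560, edgeR) and with both drugs (−0.98, adjusted p = 6.58e-04, edgeR), and was at −0.18 with VTP50469, which did not pass. CHAF1A fell in the same comparisons, with log2 fold changes of −0.70 with MI-503, −0.65 with EPZ6438 and −1.28 with both drugs, and was at −0.22 with VTP50469 (adjusted p = 0.458, edgeR). Of the PRC2 core, 3 of 3 genes fell with MI-503 and 2 of 3 with both drugs. Of the H3K9 demethylases, 4 of 11 rose and 2 fell with MI-503, and 1 of 10 rose and 1 fell with both drugs. Of the other silencing genes, 6 of 24 rose and 8 fell with MI-503, and 4 of 25 rose and 6 fell with both drugs.

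Across the 4 DLBCL lines of the MI-503 experiment, DMSO levels in KARPAS422 were set against all libraries of the other lines, DB, Farage and SUDHL5. KARPAS422 lay below all of these for 3 members, above all for 1 and neither for 9. Among the 9, CBX3 was at 406 and 435 CPM in KARPAS422 and between 292 and 419 CPM in the other lines. TRIM28 was at 250.2 and 257 CPM in KARPAS422 and between 421.9 and 494 CPM in the other lines. CBX5 was at 142 and 143 CPM in KARPAS422 and between 165 and 433 CPM in the others, and CBX1 at 81.2 and 84.0 CPM and between 101 and 179 CPM. SETDB1 was at 63.9 and 64.8 CPM in KARPAS422 and between 46.1 and 60.6 CPM in the others. UHRF1, at 147 and 148 CPM in KARPAS422, lay within the range of the other lines, 101 to 187 CPM.

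UHRF1, CBX3, SUV39H1, SUV39H2 and TRIM28 passed as lower both with MI-503 and with both drugs, where 26.3% and 25.2% of all genes fell. The share of all genes that fell in both comparisons was not computed. The call of SUV39H1 with MI-503 depended on MI503 replicate 1. Those of CBX3 and SUV39H2 with both drugs were lost in a fit of the compared groups alone. The starts of the member genes were searched for the words TTTCCCGC and TTTGGCGC, typical of sites for E2F factors that drive genes of DNA replication, on both strands (GCGGGAAA and GCGCCAAA in reverse). The windows, from RefSeq on GRCh38.p14, run from 250 bases before to 50 bases after each start, and 12 of the 13 members had an entry, all but TRIM28. The words do not overlap, and 2 of the 18 windows of these genes, 1 of UHRF1 and 1 of CBX3, held a match, where 797 of 35116 promoters of the same length, or 2.27%, did. The match begins 14 bases before the start in 1 of the 3 UHRF1 windows, at chr19:4909251-4909550 on the plus strand, and 4 bases before the start in CBX3, at chr7:26201193-26201492 on the plus strand. The windows are shown with the match in capitals, and a match is not a binding site:
UHRF1: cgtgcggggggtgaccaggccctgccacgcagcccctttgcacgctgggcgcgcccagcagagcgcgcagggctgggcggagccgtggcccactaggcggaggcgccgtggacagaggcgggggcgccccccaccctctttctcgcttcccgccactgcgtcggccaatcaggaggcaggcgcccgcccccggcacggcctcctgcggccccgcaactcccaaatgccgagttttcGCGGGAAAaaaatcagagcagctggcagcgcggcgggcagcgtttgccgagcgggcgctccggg
CBX3: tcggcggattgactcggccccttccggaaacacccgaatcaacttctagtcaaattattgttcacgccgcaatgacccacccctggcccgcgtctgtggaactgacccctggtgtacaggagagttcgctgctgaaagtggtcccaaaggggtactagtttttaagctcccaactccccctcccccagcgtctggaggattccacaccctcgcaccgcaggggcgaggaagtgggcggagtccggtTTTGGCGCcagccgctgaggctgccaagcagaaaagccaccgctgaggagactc
SUV39H1 and SUV39H2 held neither word in their windows. Whether E2F factors act on any of these genes was not tested.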

How the data were processed

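Pooled knockout screen libraries of KARPAS422 and K562 and RNA-seq libraries of KARPAS422 were used, with DMSO libraries of DB, Farage and SUDHL5 for levels and SuDHL10 libraries only to see where EHMT2 is listed at 0, grouped by the labels' line, day, treatment and replicate number. The authors deposited the screen as unnormalized counts of each sgRNA, made with cutadapt and MAGeCK. They deposited RNA-seq as unnormalized counts of each gene, made with HISAT2 (2.1.0) on hg38 and featureCounts (1.6.1). The strand setting and annotation were not given in the sources used here. Reads of overlapping genes may therefore be shared. The deposited counts are PCR reads, not molecules.

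Screen counts were scaled to equal totals, a pseudocount of 1 was added, sgRNAs with fewer than 30 day 0 counts were dropped, and log2 changes were centred on the median of 48 controls. RNA-seq counts were tested by quasi-likelihood in edgeR (4.0.16, R 4.3.3) with filterByExpr, TMM and Benjamini-Hochberg adjustment over all genes, in a fit of 4 libraries for MI-503 and of 8 for the other drugs. A member passed at an adjusted p under 0.1. The KARPAS422 libraries held 25106810 to 54883332 counts with MI-503 or DMSO and 8956156 to 21837235 in the other experiment. Counting error is smaller in the deeper libraries. Replicates were compared by a chi-square per gene of their counts, which ran from 1.82 to 47.5, the highest in the pair given both drugs, and none was counted as a duplicate. CPM of contrasts are TMM-normalized within the fit, and those across lines over all libraries of that table. Gene positions are from GENCODE on hg38. The scripts were tested on simulated data. Alternatives were 2 other centrings, another pseudocount, other minimums, the mean over sgRNAs, each gene's lowest or highest sgRNA left out, RLE factors, no filter on low counts, DESeq2 (1.42.0), the compared groups alone, the replicate block and each library left out. Every member is named with its score. Their sgRNAs are given singly where the gene scored below −1 or its sgRNAs spread by more than 3 log2 units, and by range otherwise, with s_282 of CBX3, SETDB2 under both drugs and the RNA-seq values of genes that did not pass chosen after their values were seen. The members, lists and tests were chosen with earlier results of these data known. The promoter words were chosen after the RNA-seq results were seen. CUT&Tag files were not used.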

Additional observations from a re-analysis of the deposited data

Results flagged for a closer look

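The CBX3 score differed in sign between the lines, at −0.61 in KARPAS422 and 0.062 in K562. The difference was not tested, since each line has 1 library per day.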

How the results depend on the processing

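With centring on all sgRNAs, 2 members in KARPAS422 and 0 in K562 scored below −1, the medians were −0.23 and −0.22, and the median difference was −0.11. With library totals alone the counts were 2 and 0, the medians −0.15 and −0.25, and the median difference 0.0019. With no minimum on day 0, SUV39H2 joined the calls in KARPAS422 (6 members, against 33.2% of all genes), SETDB1 left the calls in K562 (0 members), since an sgRNA with 0 counts on both days then entered its median, and the median difference was −0.89. With the mean over sgRNAs the medians were −1.33 in KARPAS422 and −0.65 in K562. In KARPAS422 7 members were then below −1 (all genes 35.8%), MPHOSPH8 and SUV39H2 added. In K562 2 were (11.2%), MPHOSPH8 and SUV39H2, while SETDB1 at −0.93 was no longer called. Without each gene's lowest sgRNA the medians were −0.52 and −0.23, with 5 members below −1 in KARPAS422 (28.7%) and 0 in K562. Without its highest they were −1.37 and −0.71, with 8 members below −1 in KARPAS422 and 3 in K562, where 41.5% and 9.93% of all genes did and the medians of all genes were −0.81 and −0.35.

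In RNA-seq, members that rose and fell with 1 library left out numbered 1 to 2 and 5 to 8 with MI-503, 0 and 0 to 2 with EPZ6438, and 0 to 2 and 5 to 10 with both drugs. With VTP50469 both stayed at 0. CBX5 with both drugs changed sign without replicate 1 of both drugs (−0.56), and was at 0.49 without replicate 2. DESeq2 called 1 rise with EPZ6438, and a fit of the compared groups alone 2. With both drugs that fit called 0 rises and 3 falls, the calls of CBX1, CBX3, SUV39H2 and SETDB2 being lost. The cause was not tested.

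With the replicate number as a block, the counts of members that rose and fell were 2 and 8 with MI-503, 0 and 2 with EPZ6438, 0 and 0 with VTP50469, and 1 and 6 with both drugs, as without it. Same-numbered libraries deviated together in the experiment with EPZ6438 and VTP50469 (correlation across genes 0.68 to 0.87 over the pairs of groups) and not with MI-503 (−0.013), and the labels do not say that a number marks a shared day.

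The screen has 1 library per line and day, so its differences were not set against replicate error.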
